A study of Mus musculus with 12 samples.

Results

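The E proteins and the Id proteins are the partners and the inhibitors of the basic helix-loop-helix (bHLH) factor Mist1, which is encoded by Bhlha15. The group was defined by gene name and holds 7 of the 24189 genes that all libraries list: the 3 E protein genes Tcf3 (E2A), Tcf4 (E2-2) and Tcf12 (HEB) and the 4 Id genes Id1, Id2, Id3 and Id4. All 7 names were found. Of these genes, 6 reached the minimum of 1 TPM, a transcript abundance corrected for transcript length and library size, in at least 2 libraries and were tested, whereas Id4 did not. The RNA-seq data comprise 10 libraries of C57BL/6 mouse cells with 2 libraries for each of 5 groups.

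Of the 10 libraries, 6 are plasmablasts (PBs) that arose from splenic B cells in the iGB system, in which B cells are grown on 40LB cells, a fibroblast feeder line that presents CD40 ligand and BAFF, with IL-4 and then IL-21, and that were sorted on day 8 by surface markers that included CD138+ and CD23-. They carried 3 genotypes. The control PBs were Xbp1(fl/fl), with floxed alleles but no Cre. The Xbp1-deleted PBs were Cd23-Cre Xbp1(fl/fl), in which Cre is driven by Cd23 and acts from immature B cells onward. The CreER PBs were Bhlha15(CreER/CreER), in which CreER was inserted into both alleles of Bhlha15, whose libraries entered the normalization and dispersion estimate of the study but, by the design text of the series, not its differential tests. The other 4 libraries are splenic plasma cells (PCs) sorted as TACI+CD138+ cells on day 7 after immunization with NP-KLH in alum. They are the wildtype PCs, which the sample table of the study lists as Bhlha15(fl/fl), a floxed allele that encodes Mist1 with a biotin acceptor sequence, and the Bhlha15-deleted PCs, which are Cd23-Cre Bhlha15(fl/fl). Mist1 Bio-ChIP-seq, in which biotinylated Mist1 is pulled down with streptavidin, was done in 2 experiments on PBs formed with LPS from R26(BirA/BirA) mice that carried the Bhlha15(fl/fl) allele. The study describes the libraries of a genotype as independent experiments, while the number of mice per library is not given in the sources used here, and p-values measure the spread between these libraries.

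All bHLH factors of this kind bind DNA as dimers, at the E-box sequence CANNTG. E proteins are widely expressed, form homodimers or pair with tissue-restricted bHLH proteins such as Mist1, and are required for early B cell development and for germinal center B cells and plasma cells. Id proteins have the helix-loop-helix dimerization domain but lack the basic region that contacts DNA, and thus hold E proteins in dimers that cannot bind E-boxes. TPM values are corrected for transcript length and can be compared between genes, but they keep no record of read numbers, which leaves the sequencing depth unknown.

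All 8 plasma cell markers reached 1 TPM in every library, but at levels that differed between groups. Irf4, a factor required for plasma cell differentiation, ranged from 651 to 971 TPM and Sdc1 (CD138) from 157 to 571 TPM, whereas Tnfrsf17, the receptor BCMA, was at 16.1 to 33.2 TPM in the PBs and at 480 to 584 TPM in the PCs. Markers of other cells were also present. The summed level of 10 fibroblast markers was 983 to 1934 TPM in the PBs and 27.4 to 32.7 TPM in the PCs, and the collagen gene Col1a1 was at 460 to 904 TPM in the PBs and at 0.332 to 0.451 TPM in the PCs. The summed level of 10 T cell markers was 42.1 to 47.6 TPM in the PBs and 214 to 347 TPM in the PCs, and that of 8 neutrophil and myeloid markers was 614 to 1098 TPM in the PCs. Within the PBs, the latter sum was 136 and 137 TPM in the Xbp1-deleted PB libraries and 6.66 to 14.6 TPM in the other 4 libraries. The targeted gene followed the labels, as Bhlha15 was at 176 and 159 TPM in control PBs and at 0.210 and 0.551 TPM in CreER PBs, and fell from 258 and 242 TPM in wildtype PCs to 14.4 and 16.6 TPM in Bhlha15-deleted PCs. Bhlha15 was also low in Xbp1-deleted PBs, at 3.57 and 2.60 TPM, while Xbp1 fell from 3168 and 3043 TPM to 1981 and 2024 TPM.

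Tcf3 was the E protein gene with the highest level in every library. It was measured at 171 and 170.3 TPM in control PBs, 229 and 229 TPM in Xbp1-deleted PBs, 174 and 171 TPM in CreER PBs, 179 and 198 TPM in wildtype PCs and 229 and 228 TPM in Bhlha15-deleted PCs. Thus, the PBs with deleted Xbp1 and the PCs with deleted Bhlha15 lay at 228 to 229 TPM, above all libraries of the other 3 groups.

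Tcf4 differed between PBs and PCs instead. Its levels were 64.5 and 60.8 TPM in control PBs, 71.2 and 73.3 TPM in Xbp1-deleted PBs and 61.8 and 57.2 TPM in CreER PBs, as compared with 164 and 167 TPM in wildtype PCs and 159 and 153 TPM in Bhlha15-deleted PCs. All PC libraries were above all PB libraries.

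Tcf12 was highest in wildtype PCs, at 99.2 and 91.9 TPM, and in Xbp1-deleted PBs, at 87.2 and 91.6 TPM. It was lower in Bhlha15-deleted PCs, at 73.9 and 69.5 TPM, in control PBs, at 67.1 and 67.5 TPM, and in CreER PBs, at 60.8 and 59.4 TPM. The order of the groups for Tcf12 was therefore different from that for Tcf3 and Tcf4.

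Among the Id genes, Id1 was most abundant in the PBs. Its levels were 79.0 and 86.6 TPM in control PBs, 118 and 119.5 TPM in Xbp1-deleted PBs and 100.3 and 86.0 TPM in CreER PBs, but only 4.16 and 3.23 TPM in wildtype PCs and 1.97 and 3.15 TPM in Bhlha15-deleted PCs. Id3 was measured at 76.5 and 80.3 TPM, 103 and 95.2 TPM and 81.7 and 67.4 TPM in the PBs of these 3 genotypes, in this order, and at 11.98 and 13.6 TPM in wildtype PCs and at 12.1 and 14.0 TPM in Bhlha15-deleted PCs. Hence, Id1 and Id3 both separated the PBs from the PCs without overlap. Differences between the stages were frequent, with 76% of 13230 genes called by limma between wildtype PCs and control PBs.

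Id2 had a narrower range, but all of its PB libraries were also above all of its PC libraries. It was detected at 25.4 and 32.2 TPM in control PBs, 41.4 and 41.3 TPM in Xbp1-deleted PBs, 34.3 and 28.2 TPM in CreER PBs, 18.1 and 19.8 TPM in wildtype PCs and 11.9 and 13.4 TPM in Bhlha15-deleted PCs, and it was the most abundant Id transcript in wildtype PCs. Id4 stayed between 0.0741 and 0.523 TPM in the PBs and was listed at 0 in the PCs. The exons of Id4 overlap those of A330033J07Rik, a lincRNA gene on the opposite strand, so that its low values are uncertain. No exons of the other 6 genes overlap another gene of the annotation, and none of the 7 genes had a near-identical coding transcript of another gene.

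**Figure D1:**
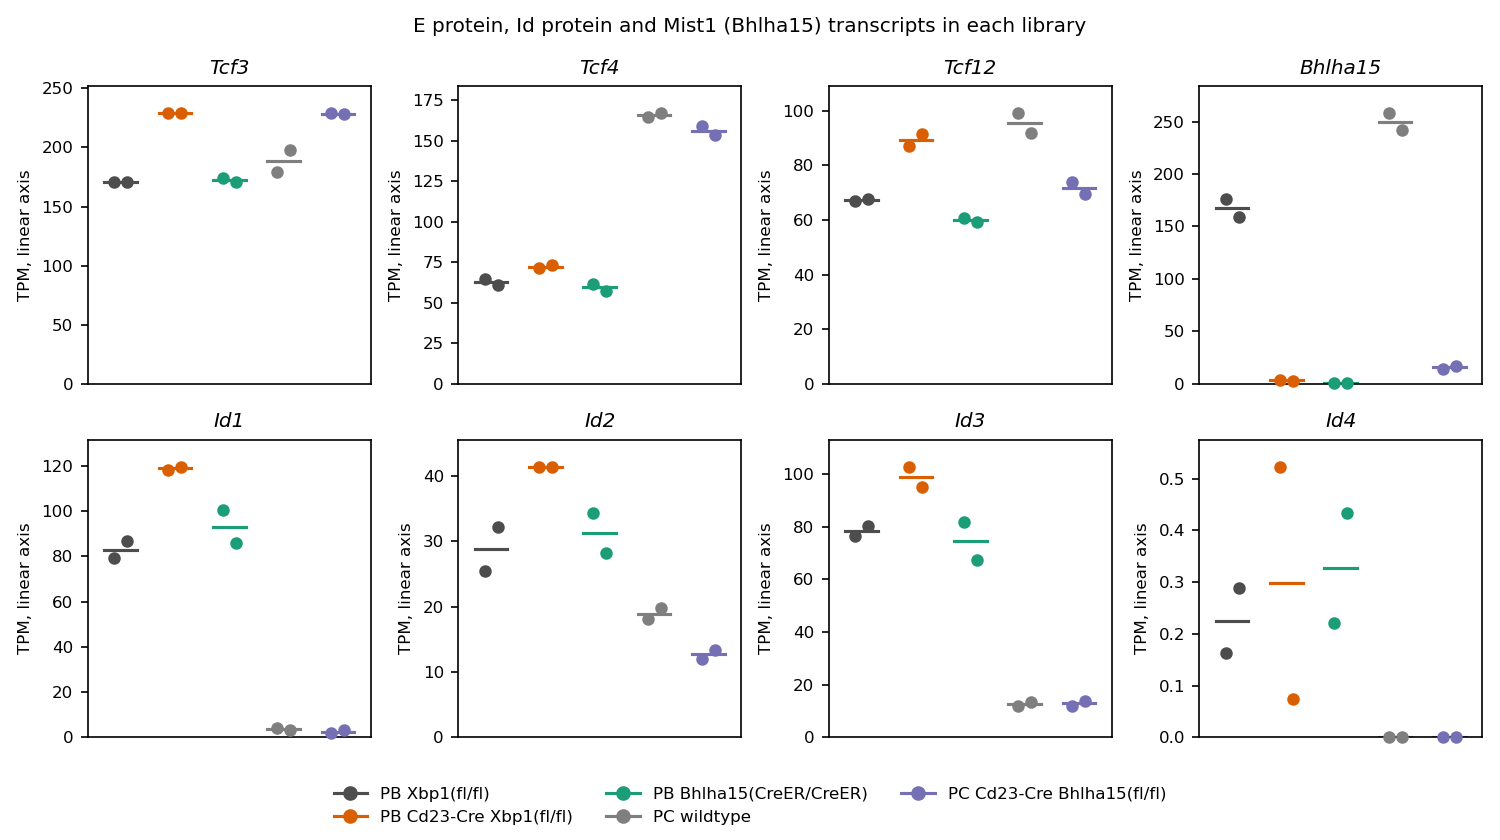
TPM of the 3 E protein genes, Bhlha15 and the 4 Id genes on linear axes starting at 0, with a point for each library, a line at the mean of the 2 libraries and colors for the 5 groups. Tcf4 is highest in the 4 PC libraries, where it reaches 167 TPM, whereas Id1 and Id3 are high in the 6 PB libraries and do not exceed 14.0 TPM in the PCs.

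Summed over the 3 genes, E protein transcripts amounted to 302 and 299 TPM in control PBs, 387 and 394 TPM in Xbp1-deleted PBs, 296 and 287 TPM in CreER PBs, 443 and 457 TPM in wildtype PCs and 462 and 451 TPM in Bhlha15-deleted PCs. The sum of the Id transcripts corresponded to 59.9% to 73.1% of the E protein sum in the PB libraries, but to 7.74% and 8.01% in wildtype PCs and 5.63% and 6.78% in Bhlha15-deleted PCs. Tcf3 contributed 56.5% to 59.4% of the E protein transcripts in the PBs, 40.5% and 43.3% in wildtype PCs and 49.6% and 50.6% in Bhlha15-deleted PCs. The Bhlha15 transcript itself corresponded to 58.1% and 53.3% of the E protein sum in control PBs and to 58.3% and 52.9% in wildtype PCs. These sums describe transcripts, and no test was made on them.

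**Figure D2:**
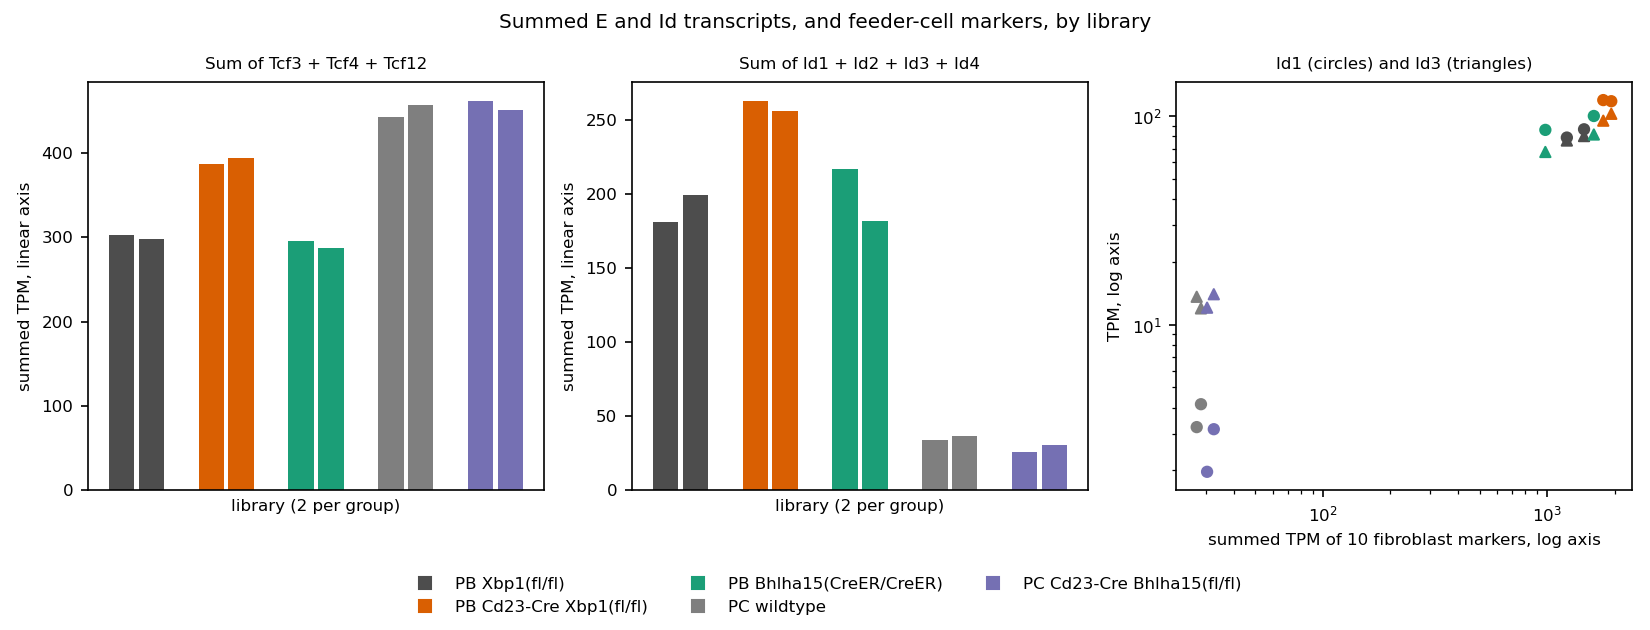
Summed TPM of the E protein genes (left) and of the Id genes (middle) as bars for each library, and Id1 and Id3 plotted against the summed TPM of 10 fibroblast markers on log axes (right), with colors for the 5 groups. The E protein sum is 287 to 462 TPM in all libraries, whereas the Id sum is 181 to 263 TPM in the PBs and 25.98 to 36.6 TPM in the PCs, which also have the low fibroblast marker sums.

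The position of Mist1 at the 7 genes was read from the Bio-ChIP-seq peaks, which had been mapped to the mm9 genome. Merging of the peaks that were shared by both experiments resulted in 23806 common regions. Such regions were present within 10 kb of 6 of the 7 genes, with the exception of Id4, and within 1 kb of an annotated transcription start of 5 of the 7 genes. Of the 22367 protein-coding genes of the annotation, 54.1% had a region within 10 kb and 35.8% had a region at a start, so that a region near a gene is common in this data set. Tcf4 (chr18:69503800-69847621) held 14 regions and Tcf12 (chr9:71692059-71959626) held 13, mostly in introns along these long genes. Counted over gene and flanks, this corresponds to 3.85 and 4.52 regions per 100 kb, as compared with a median of 1.16 for all protein-coding genes. The density was higher at the shorter genes Tcf3 (6.8), Id1 (9.45), Id2 (8.97) and Id3 (13.5), and was 0 at Id4. Tcf3 (chr10:79872259-79896392) had 2 regions at its starts and 1 region downstream, which overlaps Mbd3.

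Of the short Id genes, Id1 (chr2:152561987-152563146) had 1 region just upstream of its start and another that covered coding exon sequence. Id2 (chr12:25778666-25780957) had 1 region over its start and another upstream of it. Id3 (chr4:135699412-135701670) had 1 region upstream, 1 over a non-coding exon and 1 downstream of it, but none at its start. Id4 (chr13:48356796-48359405) had none. Bhlha15 itself (chr5:144951155-144955310) had 4 regions, of which 2 lay upstream within Lmtk2, 1 covered its start and 1 overlapped coding sequence.

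**Figure D3:**
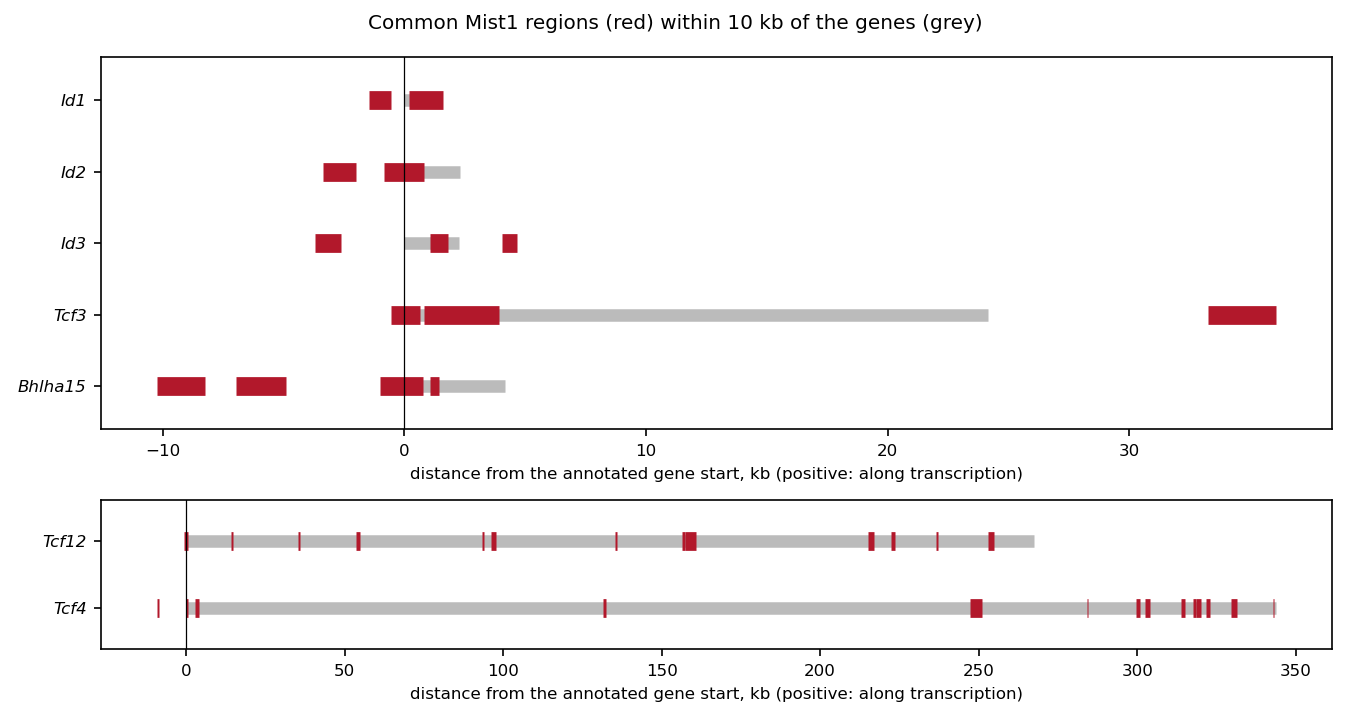
Common Mist1 regions (red) along 6 E protein and Id genes and Bhlha15 (grey bars, gene length to scale), plotted by distance in kb from the annotated gene start, with positive values in the direction of transcription and a separate scale for the 2 long genes. Id1, Id2, Id3 and Bhlha15 have 2 to 4 regions within 10 kb, whereas the 13 regions of Tcf12 and the 14 regions of Tcf4 spread along the gene bodies.

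The sequences below are the central 200 bp of the region closest to the annotated start of a gene for which this window meets no exon, and are shown because they hold the candidate E-boxes of the Mist1-bound regions near these genes. They are given for the plus strand of mm9, from 5′ to 3′, with every CANNTG in capitals. The windows of Id1 and Bhlha15 lie close upstream of the transcription start, those of Id2 and Id3 lie further upstream between genes, and those of Tcf3 and Tcf12 are intronic. The peak lists contain no summits, so that the center of a region is not necessarily the site of strongest binding.
Id1, chr2:152560864-152561063: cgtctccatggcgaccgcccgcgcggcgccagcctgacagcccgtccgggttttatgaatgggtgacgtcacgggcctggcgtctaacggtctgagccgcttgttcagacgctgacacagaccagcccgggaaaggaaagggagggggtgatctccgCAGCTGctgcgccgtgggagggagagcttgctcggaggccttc
Id2, chr12:25783539-25783738: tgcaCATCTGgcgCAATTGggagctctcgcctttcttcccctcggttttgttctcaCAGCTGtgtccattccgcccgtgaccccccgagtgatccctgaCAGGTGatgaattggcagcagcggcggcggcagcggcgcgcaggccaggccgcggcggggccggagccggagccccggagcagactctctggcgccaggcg
Id3, chr4:135696160-135696359: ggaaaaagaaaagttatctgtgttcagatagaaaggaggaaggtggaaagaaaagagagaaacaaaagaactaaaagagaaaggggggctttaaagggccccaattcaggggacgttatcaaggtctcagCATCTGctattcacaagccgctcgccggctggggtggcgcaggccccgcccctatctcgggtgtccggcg
Tcf3, chr10:79893931-79894130: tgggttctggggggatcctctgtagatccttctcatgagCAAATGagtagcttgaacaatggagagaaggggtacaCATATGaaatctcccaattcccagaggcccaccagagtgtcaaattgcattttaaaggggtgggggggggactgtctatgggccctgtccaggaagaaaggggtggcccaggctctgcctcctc
Tcf12, chr9:71945012-71945211: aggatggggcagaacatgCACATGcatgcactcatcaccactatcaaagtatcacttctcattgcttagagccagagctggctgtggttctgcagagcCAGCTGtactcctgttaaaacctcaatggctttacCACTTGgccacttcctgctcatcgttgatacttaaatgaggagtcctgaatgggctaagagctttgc
Bhlha15, chr5:144950941-144951140: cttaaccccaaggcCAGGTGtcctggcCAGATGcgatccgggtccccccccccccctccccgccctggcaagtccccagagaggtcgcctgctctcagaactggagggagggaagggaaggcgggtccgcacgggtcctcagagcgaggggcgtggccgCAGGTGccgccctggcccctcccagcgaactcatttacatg

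The E-box CAGCTG, which reads the same on both strands and occurs in 27.9% of all 23806 windows, was present once each in the windows of Id1, Id2 and Tcf12. CACCTG, or CAGGTG on the opposite strand, occurs in 20.2% of all windows and was found once at Id2 and in 2 copies at Bhlha15. CAGATG, which reads CATCTG on the opposite strand and occurs in 22.8% of all windows, was found at Id2, Id3 and Bhlha15. The window of Tcf3 held CAAATG (11.6%) and CATATG (11.4%), that of Tcf12 also held CACATG (13.1%) and CAAGTG (10.3%), and that of Id2 also held CAATTG (2.01%). Altogether, 76.7% of the 23806 windows contained a CANNTG sequence. These matches are counts of letters and do not identify a bound site.

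The first genotype comparison asked how the loss of Xbp1 in PBs affects these genes. For testing, TPM were divided by a factor for each library (median of ratios), and log2(scaled TPM + 0.1) was fitted with limma, so that all log2 fold changes refer to this scale. In Xbp1-deleted PBs, Id1 and Id2 were higher than in control PBs. Id1 rose by 0.31 on the log2 scale (SE 0.070, n = 2 libraries per group, adjusted p = 0.0110 by limma) and Id2 by 0.32 (SE 0.10, adjusted p = 0.0492), or 1.24-fold and 1.25-fold. The other 4 genes did not pass the test, with log2 fold changes of 0.22 for Tcf3 (adjusted p = 0.0672), 0.20 for Tcf12 (adjusted p = 0.0869), 0.13 for Id3 (adjusted p = 0.278) and -0.0020 for Tcf4 (95% interval -0.18 to 0.18). Thus, 2 of 6 genes were called, both as higher, beside 28.3% of all 12125 genes tested in either direction, 10.3% as higher and 18% as lower.

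These calls depended on how the libraries were scaled and on single libraries. In TPM as deposited, both Xbp1-deleted PB libraries were above both controls for each of the 6 genes, and all 6 were called as higher, with log2 fold changes of 0.52 for Id1, 0.53 for Id2, 0.42 for Tcf3, 0.41 for Tcf12, 0.34 for Id3 and 0.21 for Tcf4, which thereby changed its sign. In these values, 4780 of the 12125 genes tested were called in either direction, instead of 3436 after scaling. The study describes Tcf3 and Tcf4 as moderately elevated in Xbp1-deleted PBs, which is the direction of both genes in TPM as deposited. After scaling, neither of them passed the test. The median of all genes was shifted by 0.21 on the log2 scale in TPM as deposited. The share of all genes with both Xbp1-deleted PB libraries above both controls was not determined. The share of higher genes among the called genes was 36.4% after scaling, 71.6% in TPM as deposited and 56.1% after quantile normalization. Without any 1 of the 4 libraries, Id1 missed the threshold (adjusted p = 0.0554 to 0.0940), and Id2 did so without control PB library 1 (adjusted p = 0.306) or without Xbp1-deleted PB library 1 (0.169) or library 2 (0.149). In the model of all 10 libraries, 3 of the 6 genes were called, as Id1 missed the threshold (adjusted p = 0.185) while Tcf3 (adjusted p = 0.00356), Tcf12 (0.0165) and Id2 (0.0272) passed it.

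Markers of several cell types moved with this comparison. The plasma cell marker sum was 41765 and 41761 TPM in control PBs and 21660 and 21029 TPM in Xbp1-deleted PBs, with 4 of 8 markers called lower and none higher. It included Mzb1, which was at 15573 and 14995 TPM against 3707 and 3547 TPM, and Igj, which was at 21687 and 22486 TPM against 14414 and 13743 TPM. The sum of 6 markers of activated or mature B cells was 1010 and 1051 TPM in control PBs and 1164 and 1098 TPM in Xbp1-deleted PBs. This rise holds for TPM as deposited. On the scaled data used for testing, the median log2 fold change of these 6 markers was -0.22, and 1 marker was called lower. The fibroblast marker sum was highest in the Xbp1-deleted PBs, at 1934 and 1781 TPM, as compared with 1226 and 1462 TPM in the controls. Of the 8 fibroblast markers that passed the filter outside the higher group, 2 were called higher. The neutrophil and myeloid markers were higher as well, in 4 of 4 such markers. The fibroblast marker Lum, outside these counts, was called lower. It was at 2.402 and 2.197 TPM in control PBs and at 0.628 and 0.533 TPM in Xbp1-deleted PBs. The part of these markers in the Id1 and Id2 results was not tested.

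In CreER PBs, in which Bhlha15 was below 1 TPM, none of the 6 genes was called by limma against control PBs, against a background of 0.322% of the 12125 genes tested, 0.0495% as higher and 0.272% as lower. At an unadjusted p under 0.05, 10.4% of all genes passed and 1 of the 6 genes, Id1, did so (log2 fold change 0.21, SE 0.070, adjusted p = 0.354). The log2 fold changes of the other 5 genes lay between -0.12 for Tcf12 (95% interval -0.30 to 0.053) and 0.16 for Id2 (-0.074 to 0.40), with 0.057 for Tcf3, -0.033 for Tcf4 and -0.036 for Id3. The libraries of both groups overlapped in TPM for all of the 6 genes except Tcf12, which was lower in both CreER PB libraries. The share of all genes tested that did not overlap was not determined. The 95% intervals of Tcf3, Tcf4, Tcf12 and Id3 did not extend beyond 0.30 in either direction.

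Both mutant PBs, which share the control libraries in the comparisons above, were also compared directly. Tcf12 was higher in Xbp1-deleted PBs than in CreER PBs by 0.32 on the log2 scale (SE 0.076, adjusted p = 0.0152 by limma), or 1.25-fold, whereas the log2 fold changes of the other 5 genes were 0.031 to 0.16 and did not pass the test. In this comparison, 27.1% of all genes were called with 9.34% higher and 17.8% lower. The share of higher genes among those called was 34.4% after scaling, 75.9% in TPM as deposited and 55.7% after quantile normalization. In TPM as deposited, all 6 genes were called as higher, among 5243 genes called in all instead of 3287. Without Xbp1-deleted PB library 1 or 2, Tcf12 was no longer called (adjusted p = 0.0519 and 0.101).

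In the PCs, the comparison of Bhlha15-deleted with wildtype cells addressed the role of Mist1. Tcf3 and Tcf12 moved in opposite directions. Tcf3 was higher in Bhlha15-deleted PCs by 0.30 on the log2 scale (SE 0.055, n = 2 libraries per group, adjusted p = 0.0136 by limma), or 1.23-fold, whereas Tcf12 fell by 0.39 (SE 0.078, adjusted p = 0.0163), or 1.31-fold, and Tcf4 did not pass the test (-0.068, 95% interval -0.20 to 0.064). Id2 fell by 0.56 (SE 0.098, adjusted p = 0.0114), or 1.47-fold. Id1, at a few TPM, had a log2 fold change of -0.52 with a wide interval of -1.24 to 0.20, and Id3 one of 0.045 (-0.24 to 0.33). The libraries of both groups did not overlap in TPM for the 3 called genes. They did not overlap for Tcf4 and Id1 either, which were not called, so that this trait does not set the called genes apart. The share of all genes without overlap in this comparison was not determined. Hence, 3 of 6 genes were called, 1 higher and 2 lower, beside 29.5% of the 12028 genes tested, 13.3% higher and 16.2% lower.

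The directions of Tcf3, Tcf12 and Id2 were kept under all scalings and without any 1 library, but the calls were lost in part without a Bhlha15-deleted PC library. The adjusted p was 0.112 for Tcf3, 0.0649 for Tcf12 and 0.0735 for Id2 without library 1, and 0.127 for Tcf3 and 0.123 for Tcf12 without library 2. The summed T cell markers moved with this comparison, at 214 and 233 TPM in wildtype PCs and 335 and 347 TPM in Bhlha15-deleted PCs, and were led by Cd28, which plasma cells also express. The dendritic cell markers summed to 25.3 and 27.1 TPM against 18.5 and 20.3 TPM, with 1 of 4 tested markers called lower. The highest of them, Ccr9, was at 15.3 and 13.4 TPM against 8.63 and 8.13 TPM. Xcr1 was also lower, at 3.01 and 2.36 TPM against 1.47 and 1.28 TPM. So was Clec9a, below 1 TPM, at 0.322 and 0.361 TPM against 0.279 and 0.237 TPM. In contrast, Flt3, Itgax and Siglech did not fall in the mean. The NK cell markers were at 30.4 to 30.8 TPM against 32.4 to 35.1 TPM. The markers of activated or mature B cells summed to 992 and 1326 TPM in wildtype PCs and to 769 and 850 TPM in Bhlha15-deleted PCs, without overlap, and 2 of the 6 markers were called lower. The part of these markers in the results for Tcf3, Tcf12 and Id2, which B cells and, for Id2, T cells, NK cells and dendritic cells are known to express, was not tested. In such bulk samples, fewer cells of a type and less RNA per cell cannot be told apart.

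**Figure D4:**
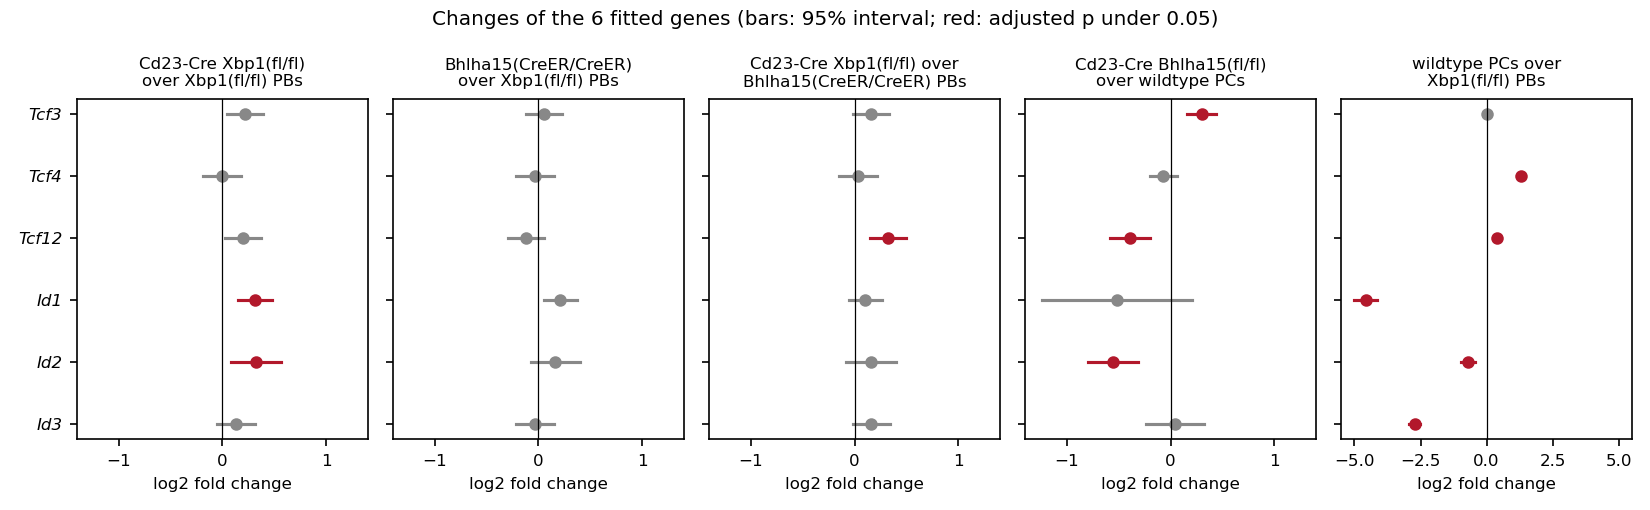
Log2 fold changes of the 6 tested genes in 5 comparisons, with points at the estimate, bars for the 95% interval and red for an adjusted p under 0.05 in limma fits of scaled TPM. The last panel has a wider axis. In the PCs, Tcf3 lies at 0.30, Tcf12 at -0.39 and Id2 at -0.56, whereas between stages Id1 lies at -4.57 and Id3 at -2.72.

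The effect of Bhlha15 loss in PCs was compared with that in CreER PBs by an interaction contrast, in which 6.11% of 13230 genes were called, 1.94% with a positive and 4.17% with a negative difference. Id2 was the single member that passed, with a difference of -0.71 (SE 0.16, adjusted p = 0.0350 by limma), as its log2 fold change was negative in PCs and 0.16, which did not pass the test, in PBs. The differences were 0.26 for Tcf3 (adjusted p = 0.0814), -0.26 for Tcf12 (0.154), -0.71 for Id1 (0.173), 0.095 for Id3 and -0.021 for Tcf4. The alleles differ as well as the stage, as the PCs carry a conditional deletion and the PBs an insertion, and the culture, sort and library series of both stages cannot be told apart. Id2 was no longer called in TPM as deposited (adjusted p = 0.0631), or when control PB library 1, CreER PB library 1 or any 1 of the 4 PC libraries was left out (adjusted p = 0.0682 to 0.125).

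The wildtype PCs and control PBs were compared to describe the stages. Id1 was 23.8-fold lower in wildtype PCs (log2 fold change -4.57, SE 0.20, adjusted p = 9.40e-08 by limma), Id3 was 6.59-fold lower (-2.72, SE 0.094, adjusted p = 3.77e-08) and Id2 was 1.63-fold lower (-0.71, SE 0.11, adjusted p = 0.000312). In contrast, Tcf4 was 2.44-fold higher (1.29, SE 0.055, adjusted p = 9.59e-08) and Tcf12 was 1.31-fold higher (0.39, SE 0.067, adjusted p = 0.000568), and Tcf3 did not pass the test (0.029, 95% interval -0.090 to 0.15), although it was called as higher in TPM as deposited (0.14, adjusted p = 0.0297) and after quantile normalization (0.20, adjusted p = 0.00631). A call was frequent in this comparison, as 76% of 13230 genes were called, 37.6% higher and 38.4% lower. By the stricter rule of an over 3-fold change with a mean above 5 TPM, which Id1 and Id3 met, 7.77% of genes were higher and 6.19% were lower.

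Fibroblast markers moved together with Id1 and Id3. In control PBs, 9 of the 10 markers reached 1 TPM in both libraries, and 4 of the 4 markers that passed the filter in both stages fell with Id1 and Id3 in wildtype PCs, where Thy1, which T cells also express, was the highest of them. Within the PB groups, the library with the higher fibroblast marker sum also had the higher Id3 level in 3 of 3 genotypes, with sums of 1617 and 983 TPM and Id3 levels of 81.7 and 67.4 TPM in the libraries of CreER PBs. The same order held for Id2 in 3 of 3 genotypes, with nearly equal levels in Xbp1-deleted PBs, and for Id1 in 2 of 3 genotypes. With a single pair of libraries per genotype, such orders carry little weight, and the share of all genes with this order was not determined. The part of feeder cells in the Id1, Id2 and Id3 levels was not tested. In turn, 4 of 4 such T cell markers and 6 of 6 such neutrophil and myeloid markers were higher in wildtype PCs, as were Tcf4 and Tcf12, and their part in these results was not tested either. Stage, culture, sort, genotype and library series cannot be told apart in this comparison.

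Other genes of the E protein pathway were taken from lists of named genes, and their counts stand beside the 28.3%, 0.322%, 29.5% and 76% of all genes called in Xbp1-deleted PBs, CreER PBs, Bhlha15-deleted PCs and between the stages. A gene that passed the filter through the higher side alone had to differ and is given by its values, outside these counts. Of 30 tissue-restricted bHLH partners, 6 were expressed highly enough for testing in the PBs and 6 in the PCs. In Xbp1-deleted PBs and in CreER PBs, Bhlha15 was the single partner that was called. In Bhlha15-deleted PCs, Bhlha15 (log2 fold change -3.99) was the single one called of the 5 partners that passed the filter in both groups, and Msc, the bHLH repressor musculin, which passed it through the wildtype PCs alone, was at 1.03 and 1.28 TPM against 0.268 and 0.202 TPM. Between wildtype PCs and control PBs, 4 partners passed the filter in both stages, of which 2 were lower and none higher. Another 4 passed it in a single stage. Of these, the mesenchymal factor Twist2 was at 15.7 and 22.0 TPM in control PBs and listed at 0 in wildtype PCs, and Twist1 was at 1.82 and 3.31 TPM and at 0.0722 and 0 TPM. Scx, a factor of tendon cells, was at 0.356 and 0.422 TPM in these PBs and at 3.00 and 2.82 TPM in wildtype PCs, and Tal2 was at 0.118 and 0.210 TPM and at 1.54 and 1.28 TPM.

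The cofactors of E proteins include corepressors of the ETO family, acetyltransferases and the LIM-domain complex, and 11 of 12 were tested. In Xbp1-deleted PBs, the ETO family corepressor Cbfa2t3 rose from 8.12 and 7.83 TPM to 15.4 and 15.6 TPM (log2 fold change 0.75, adjusted p = 0.00472), the LIM-binding protein gene Ldb1 was higher by 0.23 and Lmo2 was lower by a log2 fold change of -0.54. None was called in CreER PBs. In Bhlha15-deleted PCs, 2 cofactors were higher and 2 lower, of which the acetyltransferase gene Kat2a fell from 77.9 and 70.9 TPM to 40.9 and 43.2 TPM (-0.80, adjusted p = 0.00291), Ssbp3 was lower by a log2 fold change of -0.67 and Lmo4 was higher by 0.46. In wildtype PCs relative to control PBs, 7 cofactors were higher and 2 lower, including Cbfa2t3 (2.64), Crebbp (1.21) and Ssbp2 (-1.38).

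Genes known as E protein targets in B lineage cells comprised 17 names, of which 11 were tested in the PBs and 12 in the PCs. In Xbp1-deleted PBs, 3 were higher and 1 lower, including the B cell receptor signaling gene Cd79b (log2 fold change 0.72, from 1231 and 1161 TPM to 2281 and 2269 TPM), Foxo1 (0.70) and Cd79a (-0.59). None was called in CreER PBs. In Bhlha15-deleted PCs, 1 was higher and 2 were lower, including Vpreb3, which fell by 0.30 on the log2 scale, and the coactivator gene Pou2af1, which was higher by 0.30, as 3 of the 10 that passed the filter in both groups. Between the stages, 5 were higher and 5 lower in wildtype PCs of the 11 that passed the filter in both stages, among them the cell cycle inhibitor gene Cdkn1a (-4.67). Dntt, which passed it in the PCs alone, was listed at 0 in control PBs and was at 0.829 and 1.20 TPM in wildtype PCs.

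Id genes are known targets of BMP, TGF-beta and Egr factors, and 17 of 19 genes of these signals were tested in the PBs. In Xbp1-deleted PBs, 3 of these genes (17.6%, against 28.3% of all genes called and 18% called lower) were lower and none higher, namely the immediate early genes Egr2 (log2 fold change -1.22) and Egr1 (-0.43) and the receptor gene Tgfbr2 (-0.23), which overlapped between the groups in TPM as deposited. None passed the test in CreER PBs. In Bhlha15-deleted PCs, Egr2 fell by 0.65 and Smad3, a TGF-beta signal transducer, fell by 0.55, as 2 of 13 genes tested. Between the stages, 6 were higher and 5 lower in wildtype PCs of the 13 that passed the filter in both stages, including the BMP receptor gene Bmpr1a, which fell from 16.9 and 20.9 TPM to 2.38 and 2.43 TPM, and Egr3 (2.88). The inhibitory Smad gene Smad6, which passed it in the PBs alone, was at 1.59 and 2.02 TPM in control PBs and at 0.119 and 0.185 TPM in wildtype PCs.

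Other bHLH factors, many of which bind E-boxes without E proteins, such as the Myc and Srebf families, comprised 28 genes, of which 25 were tested. In Xbp1-deleted PBs, 1 was higher and 7 lower, including the sterol regulator gene Srebf2 (log2 fold change -1.52), Myc (-1.05) and the Max partner gene Mxd4, which fell from 185 and 170.5 TPM to 97.8 and 107 TPM. None was called in CreER PBs. In Bhlha15-deleted PCs, 2 were higher and 9 lower, including Mitf (-0.90), Myc (-0.76), which fell from 64.5 and 65.4 TPM to 36.6 and 38.9 TPM, and the Notch target gene Hes1 (-0.71). In wildtype PCs relative to control PBs, 12 were higher and 7 lower, which is the same 76% as among all genes, including Hes1 (3.79), Bhlhe40 (-1.96) and Mxd1 (1.91). Myc was thus lower in both the Xbp1-deleted PBs and the Bhlha15-deleted PCs. Under the main settings, Id2 was the single E protein or Id gene called in both comparisons, as higher in the former and lower in the latter. Its call in Xbp1-deleted PBs (adjusted p = 0.0492 by limma) was lost without some single libraries, and Tcf3 and Tcf12 were also called there in TPM as deposited.

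For each of the 6 tested genes, the 3 genes with the most similar profile were determined by the Pearson correlation of log2(scaled TPM + 0.1) over the 10 libraries, which mainly form a PB and a PC cluster, so that high values are common. The profile of Tcf3 was most like that of Irf4 (r = 0.958), which was at 865 and 971 TPM in Xbp1-deleted PBs, 947 and 886 TPM in Bhlha15-deleted PCs and 651 to 739 TPM in the other libraries, followed by 4931406C07Rik and Txlnb. The genes most like Tcf4 were Ace, Fam49a and the complement gene C1qa (r = 0.997 to 0.998), and those most like Tcf12 were Inpp5b (r = 0.982), Pogk and Sept1. Id1 was most like Gbp2b, Adamtsl5 and Hbegf (r = 0.998), Id2 was most like Tspan4, Gm20748 and Ttll12 (r = 0.984 to 0.987), and Id3 was most like Layn, En1 and Col8a1 (r = 0.999), the last of which encodes a collagen.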

How the data were processed

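RNA-seq was performed by the authors on 10 libraries, and Mist1 Bio-ChIP-seq in 2 experiments. Per the labels and the methods of the study, reads were trimmed with cutadapt, aligned with STAR 2.4.2 to mm9 and counted with featureCounts 1.5, and the deposited TPM were calculated by the authors without immunoglobulin and T cell receptor genes. The annotation and strand setting of the counting are not given in the sources used here. TPM sum to 1000000 per library, so that read numbers, counting intervals and count tests could not be had. The authors mapped the ChIP reads with Bowtie 1.0.0 and called peaks per experiment with MACS against input, and the lists give positions alone. Groups were taken from the sample labels, which carry no replicate numbers and no batch.

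Each library was divided by its median ratio to the gene-wise geometric means. A gene was tested if 2 or more libraries of the model held 1 TPM or more. The tested quantity was log2(scaled TPM + 0.1), fitted with limma 3.58.1 in R 4.3.3 (lmFit, eBayes with trend), in models of 6 PB, 4 PC or all 10 libraries, and p-values were adjusted by Benjamini-Hochberg over all genes of a comparison. An adjusted p under 0.05 was a call. A fold change on this scale understates the change of low genes, and exact tests of 2 against 2 libraries cannot go below p = 0.333. On simulated data, the fit recovered 90.9% of genes changed by 0.5 on the log2 scale in the Xbp1 comparison (11926 genes, with 23 false calls beside the 200 genes changed by any size) and 97.0% in the Mist1 comparison in PCs (11825 genes, with 11 false calls). The changed genes were drawn from genes well above the filter, and each gene had normal noise with the typical spread at its level. These shares therefore do not hold for genes at a few TPM, such as Id1 in the PCs, or with a larger spread.

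Peaks overlapping by at least 1 bp were merged with bedtools 2.31.1 and placed by GENCODE M1, whose genome is mm9. Sequences were read from that genome, and near-identical transcripts were sought with blastn 2.17.0 (95% identity over 200 bases). Printed windows exclude chromosome 18. The genes named are the 7 members, Bhlha15, Xbp1, at most the 3 called genes with the largest change of each list and comparison, and the 3 genes most like each member, beside cell markers; some genes that met this rule are not reported here. The members and gene lists were chosen with earlier results of these data known. The alternatives left TPM unscaled, used quantile normalization, changed the pseudocount to 1 or 0.01 or applied no filter or a 5 TPM filter, other eBayes settings or other models, left out each library in turn, or used other distances and overlaps for peaks.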

Additional observations from a re-analysis of the deposited data

Results flagged for a closer look

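The difference of the Mist1-loss effects between PCs and PBs passed the test for Id2. The interaction contrast gave -0.71 on the log2 scale (SE 0.16, adjusted p = 0.0350 by limma), with 18.1 and 19.8 TPM in wildtype PCs and 11.9 and 13.4 TPM in Bhlha15-deleted PCs, and with 25.4 and 32.2 TPM in control PBs and 34.3 and 28.2 TPM in CreER PBs, which overlap. The direction was the same under all 16 alternatives, with differences of -0.85 to -0.56, and the adjusted p ranged from 0.0243 to 0.125 and passed in 7 of the 16. The allele, the stage and the library series differ together. The dendritic cell marker sum was also lower in the Bhlha15-deleted PCs, at 18.5 and 20.3 TPM against 25.3 and 27.1 TPM. Its highest marker, Ccr9, fell from 15.3 and 13.4 TPM to 8.63 and 8.13 TPM. Xcr1 fell from 3.01 and 2.36 TPM to 1.47 and 1.28 TPM, and Clec9a from 0.322 and 0.361 TPM to 0.279 and 0.237 TPM. In contrast, Flt3, Itgax and Siglech did not fall in the mean. The part of these markers in the result was not tested.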

How the results depend on the processing

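Of 503 values of the 6 tested genes under alternatives, 436 kept their direction and side of the threshold, 30 lost a call, 22 gained one and 15 changed sign; unless stated, the cause was not tested. In Xbp1-deleted PBs, the genes called numbered 2, but 6 in TPM as deposited, 4 after quantile normalization or with only the 4 libraries compared, 3 in the model of 10 libraries, where Id1 was lost (adjusted p = 0.185), 1 with a pseudocount of 0.01, without a filter or without the trend, and 0 to 1 without a library, when 1822 to 2260 of all genes were called instead of 3436. In CreER PBs, no member was called under any alternative, while all genes called, 39, became 86 in TPM as deposited, 80 after quantile normalization, 62 with the 5 TPM filter, 17 without the trend, 81 with robust eBayes, 106 in the model of 10 libraries and 3 to 58 without a library. Between the mutant PBs, 1 member was called, but 6 in TPM as deposited (5243 genes in all, and 34 instead of 22 genes of the 5 lists), 4 after quantile normalization, 2 in the model of 10 libraries, 0 without the trend and 0 to 1 without a library (2128 to 3929 of all genes). In PCs, 3 members were called, 1 without the trend (2240 of all genes) and 0 to 3 without a library (1110 to 4257 of all genes). For the interaction, 1 was called, 0 in TPM as deposited, without a filter or without the trend (323 of all genes), 2 after quantile normalization (1220 of all genes) and 0 to 1 without a library (151 to 954 of all genes); fewer libraries leave fewer degrees of freedom.

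Between the stages, all 13 alternatives kept the 5 calls and their directions. The log2 fold change of Tcf4 in Xbp1-deleted PBs turned to 0.21 in TPM as deposited, 0.12 after quantile normalization, 0.00051 with only the 4 libraries and 0.060 in the model of 10 libraries, and was -0.085 to 0.084 without a library. Other values near 0 crossed it without a library. They were -0.12 to 0.052 for Tcf4, -0.0040 to 0.12 for Tcf3 and -0.094 to 0.029 for Id3 in CreER PBs, -0.064 to 0.16 for Id3 in PCs, -0.013 to 0.078 for Tcf3 between stages, and -0.083 to 0.044 for Tcf4 and -0.0064 to 0.21 for Id3 in the interaction. In scaled TPM, the E protein sum was 310, 364 and 309 TPM in control, Xbp1-deleted and CreER PBs and 429 and 444 TPM in wildtype and Bhlha15-deleted PCs, and the Id sum in Xbp1-deleted PBs was 242 TPM. Mist1 regions were found at 6 members under every peak setting, with 31 to 50 regions against 37. Read depth is unknown, and Id4 was too low to test.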
